A study of Mus musculus with 16 samples.

Results

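The genes Igf1, Tgfb1 and Vegfa encode 3 growth factors of tissue repair, and their chromatin was described in macrophages of injured mouse muscle. Members were the peaks of 16 peak lists that overlapped the gene bodies with 15 kb on each side, which gave 120 peaks of 320508 in all, with 38 at Igf1, 64 at Tgfb1 and 18 at Vegfa. On GRCm39, the mouse genome build of the lists, the genes were placed at chr10:87694100-87772900 (Igf1, forward strand), chr7:25386400-25404500 (Tgfb1, forward strand) and chr17:46327900-46343300 (Vegfa, reverse strand). The mice were C57BL6J wild type males of 8 to 12 weeks in which hind limb ischemia had been induced by tying off and removing part of the femoral artery. Macrophages positive for CD45, CD11b, F4/80 and CD64 were sorted from the calf muscle of the ischemic limb at 2 or 4 days post injury (dpi), and no uninjured control was among the libraries. For each of 4 histone marks, lactylated lysine 18 (H3K18la), trimethylated lysine 4 (H3K4me3), acetylated lysine 27 (H3K27ac) and trimethylated lysine 27 (H3K27me3) of histone H3, 2 libraries were made at each time point by CUT&Tag. In this assay an antibody brings a transposase to the mark, and the DNA released around it is sequenced.

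Insulin-like growth factor 1 (Igf1) drives growth and fusion of muscle cells, and macrophages are one of its sources in healing muscle. Transforming growth factor beta 1 (Tgfb1) is secreted in a latent form and, once activated, restrains inflammation and makes fibroblasts lay down matrix. Vascular endothelial growth factor A (Vegfa) makes endothelial cells grow into new vessels and is a classical target of the hypoxia response. H3K4me3 marks gene starts that are active or poised, H3K27ac active starts and enhancers, and H3K27me3 genes silenced by Polycomb complexes, while H3K18la is a lactate-derived mark found at active starts and enhancers.

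A list held 12060 to 35971 peaks and covered 25.3 to 205 Mb, the largest cover being that of H3K27ac 4 dpi replicate 1. Sequencing depth is unknown, so peaks were ranked by total signal within their list and given as a percentile, where 100 is the strongest peak. Called length is the length of a gene, with its 15 kb flanks, that lay in peaks. H3K27ac 4 dpi replicate 1 was the only library with the code prefix S100, the other 3 H3K27ac libraries carried S143 and all 12 libraries of the other marks S035, so that the marks H3K27ac and H3K18la cannot be told apart from their prefixes. Each library is a bulk of many cells, in which fewer marked cells and less mark per cell cannot be told apart, nor can marks on the same cell and marks on different cells.

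Bases before a RefSeq start of each gene are shown because H3K4me3 lay at all 3 gene starts. H3K18la, H3K27ac and H3K27me3 differed at the gene starts between the genes. The bases were taken from RefSeq for the older build GRCm38.p6, in which all 3 symbols matched. The positions below are of that build and were not converted. Each run of 250 bases ends just before the start of a RefSeq entry and reads 5′ to 3′ along the gene. For Vegfa, which had 2 entries, the first is given. The start of the entry was not compared with the gene start from which peak positions are counted. A run may therefore stand before another start of its gene than the one the marks are placed by. Capitals mark matches to short motifs on either strand. The letters ACGTG are the core of most hypoxia response elements, and the letters GCGTG are a second form of that core. A GC box, bound by Sp1, reads GGGCGG in this search. A TATA box, which places the start in some genes, was written as TATAAA here. The AP-1 motif of inflammatory gene control was taken as TGANTCA for the search. PU.1, the master factor of macrophages, was represented by the core GAGGAA alone. The Igf1 run is at chr10:87860861-87861110 (forward), the Tgfb1 run at chr7:25686752-25687001 (forward) and the Vegfa run at chr17:46032378-46032627 (reverse).
Igf1: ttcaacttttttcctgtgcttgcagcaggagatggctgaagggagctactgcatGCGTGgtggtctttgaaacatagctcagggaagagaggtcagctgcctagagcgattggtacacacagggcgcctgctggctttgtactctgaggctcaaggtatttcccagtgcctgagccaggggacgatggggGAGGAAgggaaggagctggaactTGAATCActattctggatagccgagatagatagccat
Tgfb1: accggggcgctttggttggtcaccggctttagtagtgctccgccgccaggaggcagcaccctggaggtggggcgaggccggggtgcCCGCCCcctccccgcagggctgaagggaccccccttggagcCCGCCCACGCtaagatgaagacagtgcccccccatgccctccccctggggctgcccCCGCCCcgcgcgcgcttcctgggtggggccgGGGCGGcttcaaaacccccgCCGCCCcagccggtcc
Vegfa: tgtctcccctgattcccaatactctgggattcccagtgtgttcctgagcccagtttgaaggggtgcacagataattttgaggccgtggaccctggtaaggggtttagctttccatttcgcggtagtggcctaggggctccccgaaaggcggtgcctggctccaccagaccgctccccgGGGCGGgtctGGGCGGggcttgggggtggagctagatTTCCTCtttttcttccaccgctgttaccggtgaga

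The Tgfb1 run was the richest in G and C, at 75.2% with 21 CpG sites, against a median of 52.4% and 6 sites over 32851 RefSeq promoters of the same length. Vegfa had 59.2% and 11 sites, and Igf1 52.8% and 5 sites. GC boxes numbered 5 before Tgfb1 and 2 before Vegfa, with none before Igf1, and 32.7% of all promoters held one. The first base of the Tgfb1 GCGTG match is also the last base of a GC box in the printed run, and Igf1 held another GCGTG match, a motif found in 28.2% of promoters. Igf1 also held 1 AP-1 match, present in 6.75% of promoters, and 1 PU.1 core, which Vegfa shared and 23.3% of promoters held. No match to ACGTG or to TATAAA lay in the 3 runs, while 16.6% and 12.4% of promoters held these letters. Bases further upstream were not searched, so a gene may hold such letters beyond its run. Such a match is a description of the letters and not of a bound site.

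**Figure D1:**
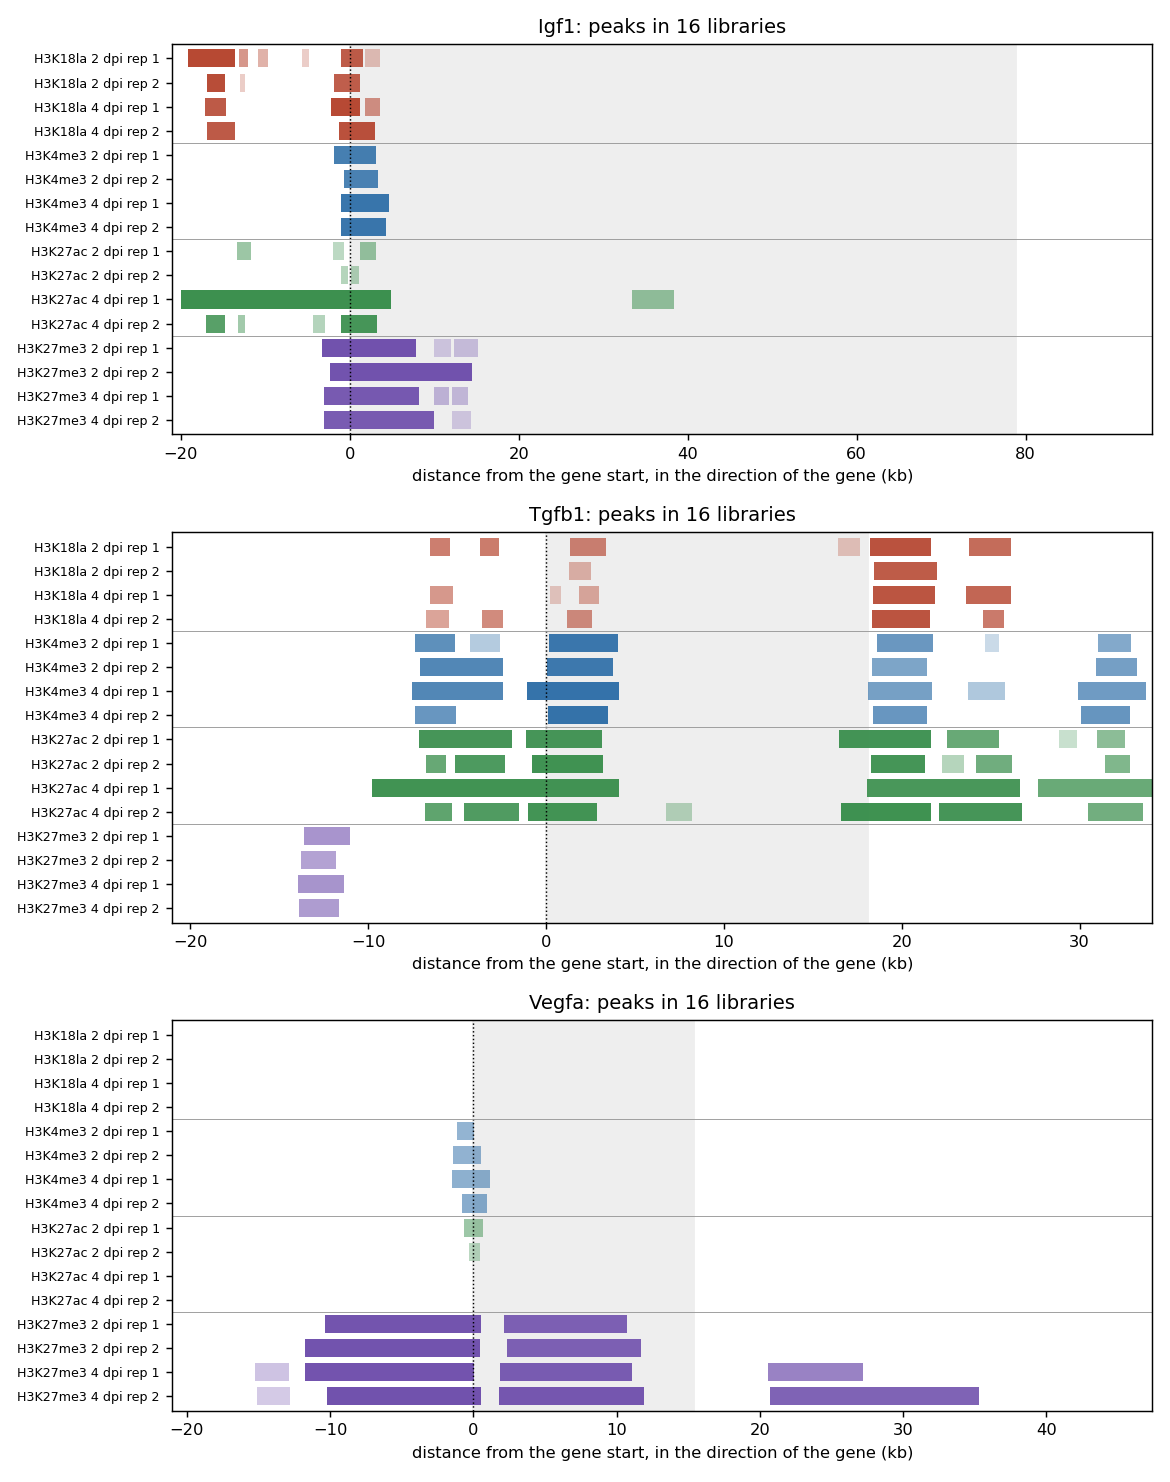
Peaks at Igf1, Tgfb1 and Vegfa in 16 libraries, one row a library, plotted by distance from the gene start in kb along the direction of the gene. Grey shading is the gene body, the dotted line the start, colour the mark (red H3K18la, blue H3K4me3, green H3K27ac, purple H3K27me3), and a darker bar a higher percentile of total signal within its list; H3K18la bars stand at Igf1 and Tgfb1 and are absent at Vegfa, whose gene body carries H3K27me3.

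H3K18la, H3K4me3 and H3K27me3 lay over the start of Igf1 in all 4 of their libraries, and H3K27ac within 1 kb of it at 2 dpi and over it at 4 dpi. Positions are given in kb from the start along the gene, with negative values upstream. H3K4me3 had a single peak there in each library, which covered 4.94 and 4.00 kb at 2 dpi and 5.70 and 5.28 kb at 4 dpi. H3K18la peaks within 1 kb of the start ranked at percentiles 82.8 and 81.0 at 2 dpi and 96.2 and 91.1 at 4 dpi. The strongest H3K27ac peaks at the start ranked at 11.7 and 17.6 at 2 dpi and at 98.4 and 91.0 at 4 dpi, both 4 dpi libraries being above both of 2 dpi. The peak at 98.4, of H3K27ac 4 dpi replicate 1, ran from -19.9 to 4.92 kb as 1 piece and had its highest signal at -16.0 kb, so that its rank is not that of the start alone. H3K27me3 covered the start in a region from -3.33 to 15.2 kb, the 4 libraries joined, and its start peaks ranked at 94.1 and 93.8 at 2 dpi and at 88.3 and 86.7 at 4 dpi. For this mark both 2 dpi libraries stood above both 4 dpi libraries.

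The H3K4me3 at the Igf1 start lay wholly inside H3K27me3, with 100% of its length covered in all 8 pairs of libraries of the same time point. Of the H3K18la length at the gene, 48.8 to 94.3% (median 77.9% over 8 pairs) was also covered by H3K27me3, and 42.0 to 80.5% (median 70.7%) by H3K4me3. Among 13298 H3K4me3 regions called in all 4 libraries of that mark, which were chosen after seeing the data to stand for gene starts, 10.6% met an H3K27me3 region called in all 4 libraries and 1.44% met both an H3K27me3 and an H3K18la region of that kind, as the Igf1 start did. Within 15 kb of its H3K4me3 region Igf1 carried 15.7 kb of H3K27me3, the 97.4th percentile of these regions, and 7.75 kb of H3K18la, the 92.9th percentile. No H3K27me3 lay within that distance in 68.8% of these regions, and no H3K18la in 21.9%. The H3K4me3 region itself was 6.49 kb wide against a median of 3.08 kb, at the 94.6th percentile.

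A separate H3K18la block lay upstream of Igf1, from -19.1 to -13.6 kb (chr10:87674965-87680502). It crossed the edge of the 15 kb flank and held the strongest H3K18la peak of the gene at 2 dpi, at percentiles 96.7 and 93.8, whereas at 4 dpi it ranked at 84.4 and 84.3, below the peak at the start. Its highest signal lay at -16.1 and -16.0 kb at 2 dpi and at -16.0 and -15.6 kb at 4 dpi. No H3K4me3 and no H3K27me3 peak reached the block in any library. H3K27ac reached it in all 4, over 3.49 and 1.58 kb at 2 dpi, wholly beyond the flank, and over 5.54 and 3.18 kb at 4 dpi, in part beyond it. The block was not assigned to a gene.

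Tgfb1 carried H3K4me3 and H3K27ac at its start and on both sides of the gene. H3K27ac covered the start in all 4 libraries. H3K4me3 covered it in 4 dpi replicate 1 and began 0.049 to 0.171 kb after it in the other libraries. H3K4me3 peaks at the start ranked at percentiles 92.7 and 89.8 at 2 dpi and 96.3 and 96.9 at 4 dpi. H3K27ac peaks at the start ranked at 92.4 and 95.8 at 2 dpi and 95.3 and 94.4 at 4 dpi. H3K18la differed from both, since only 1 of its 4 libraries, 4 dpi replicate 1, had a peak within 1 kb of the start, a peak of 0.661 kb at the 2.13th percentile. The H3K18la region nearest to the start that was called in all 4 libraries lay 1.18 to 3.38 kb into the gene (chr7:25387575-25389781), where the peaks ranked at 55.2 and 18.3 at 2 dpi and 25.1 and 47.3 at 4 dpi.

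The strongest H3K18la peak of Tgfb1 stood just past the end of the gene in all 4 libraries. It lay 18.2 to 22.0 kb from the start (chr7:25404647-25408388), which is beyond the gene end at 18.1 kb. There the peaks ranked at percentiles 90.3 and 83.3 at 2 dpi and 87.9 and 88.3 at 4 dpi, and the groups overlapped. H3K4me3 covered 3.06 to 3.44 kb and H3K27ac 3.01 to 3.74 kb of this region in each of their 4 libraries. H3K4me3 formed another region before the gene, from -7.53 to -2.40 kb (chr7:25378874-25384004). In RefSeq gene order B9d2 is the next protein-coding gene before Tgfb1 and Ccdc97 the next after it, both named here after the values were seen, and which gene the flanking regions belong to was not tested.

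No H3K27me3 peak lay in the gene body of Tgfb1 in any of 4 libraries. A single small one stood at -13.9 to -11.0 kb (chr7:25372490-25375398), with 2.60 and 1.94 kb at 2 dpi and 2.58 and 2.24 kb at 4 dpi, at percentiles 35.4 to 45.8. It shared no base with the other 3 marks in the window. Of the H3K18la length at Tgfb1, 78.5 to 100% (median 94.9% over 8 pairs) lay in H3K27ac and 65.2 to 99.7% (median 79.8%) in H3K4me3. A start region that met H3K18la and H3K27ac but no H3K27me3, each called in all 4 libraries, was also found in 29.7% of the H3K4me3 regions. The Tgfb1 start region was 5.17 kb wide, at the 88.1st percentile of width.

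Vegfa had no H3K18la peak in any of the 4 libraries, neither in the gene nor in its flanks. Of the 13298 H3K4me3 regions, 21.9% had no H3K18la within 15 kb in any library. A peak is what passed the caller's threshold, so a mark below it is not excluded by its absence from a list. H3K4me3 was present at the Vegfa start in all 4 libraries but was narrow and weak, with 1.17 and 1.94 kb at 2 dpi and 2.65 and 1.71 kb at 4 dpi, at percentiles 35.8 and 37.5 and then 39.8 and 42.8. H3K27ac had a small peak over the start in both 2 dpi libraries, of 1.35 and 0.745 kb at percentiles 32.7 and 12.7, and none in either 4 dpi library. Of H3K27ac regions, 0.704% were called in both 2 dpi libraries and in no 4 dpi library.

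H3K27me3 was the main mark of Vegfa. It covered 59.2 and 63.6% of the gene body at 2 dpi and 60.4 and 69.3% at 4 dpi. With flanks, its called length was 19.5 and 21.6 kb at 2 dpi and 29.8 and 32.8 kb at 4 dpi, so that both 4 dpi libraries exceeded both of 2 dpi. One block ran from -11.8 to 0.537 kb (chr17:46342763-46355065), and its peak ranked at percentiles 92.5 and 93.5 at 2 dpi and 93.4 and 94.0 at 4 dpi. The other covered the gene from 1.78 to 11.9 kb after the start (chr17:46331388-46341518), where peaks ranked at 82.6 and 82.5 and then 86.4 and 89.9. Between 0.537 and 1.78 kb no library had an H3K27me3 peak.

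At 4 dpi there were 2 further H3K27me3 regions that were called in both 4 dpi libraries and in no 2 dpi library. The first lay past the end of Vegfa, 20.6 to 35.3 kb from the start (chr17:46308035-46322702), and its called length was 8.83 and 14.6 kb in the 4 dpi libraries, with part of it beyond the flank. The second was small and lay at -15.3 to -12.8 kb (chr17:46356123-46358564), at the 10.8th and 5.24th percentiles. Of all H3K27me3 regions, 10.4% showed this pattern, and the 4 dpi lists were longer, with 14791 and 14836 peaks against 12225 and 12060 at 2 dpi. The part of list length in the gain was not tested. Of the H3K4me3 length at the Vegfa start, 46.6 to 100% (median 86.9% over 8 pairs) lay in H3K27me3. An H3K4me3 region that met H3K27me3 and had no H3K18la peak within 15 kb was found in 4.96% of the 13298 regions. The H3K27me3 within 15 kb of the Vegfa one, 21.9 kb, stood at their 98.7th percentile, where 68.8% had no H3K27me3.

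To ask how lactylation was placed next to the other marks, called length was compared between the 4 H3K18la libraries and the 4 of each other mark. At Igf1 H3K18la covered 5.94 ± 2.13 kb (SD, n = 4), with 8.83 and 3.70 kb at 2 dpi and 5.54 and 5.67 kb at 4 dpi. H3K27me3 covered 15.7 ± 0.824 kb there and exceeded every H3K18la library (2-sided exact permutation p = 0.0286, adjusted p = 0.0429 over 9 contrasts). Within 15 kb of H3K4me3 regions in general, H3K27me3 was longer without overlap in 16.1%, and 68.8% of them had no H3K27me3. H3K4me3 at Igf1 covered 4.98 ± 0.726 kb and overlapped with H3K18la (exact permutation p = 0.514, adjusted p = 0.579, n = 4). H3K27ac covered 9.54 ± 10.4 kb and overlapped as well (exact permutation p = 0.8, n = 4), its 4 libraries being 4.71 and 1.75 kb at 2 dpi and 24.9 and 6.81 kb at 4 dpi. Without the library of 24.9 kb, H3K27ac 4 dpi replicate 1, the difference of H3K18la minus H3K27ac went from -3.60 to 1.51 kb.

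At Tgfb1 the order was the reverse for H3K27me3. H3K18la covered 8.34 ± 2.70 kb (SD, n = 4), with 11.2 and 4.73 kb at 2 dpi and 9.03 and 8.35 kb at 4 dpi. This was more than the 2.34 ± 0.310 kb of H3K27me3 and less than the 14.5 ± 3.28 kb of H3K4me3 and the 21.5 ± 5.09 kb of H3K27ac, with no overlap in the 3 contrasts (exact permutation p = 0.0286, adjusted p = 0.0429 for each, n = 4). H3K18la was longer than H3K27me3 without overlap at 35.8% of H3K4me3 regions, H3K27ac longer than H3K18la at 47.6% and H3K4me3 longer than H3K18la at 63.7%. The Tgfb1 contrasts with H3K4me3 and H3K27ac thus took the side that was common near such regions. These shares count length within 15 kb of an H3K4me3 region, where Tgfb1 had 4.19 kb of H3K18la, and not the whole gene with flanks. The regions were also chosen for H3K4me3 in all 4 libraries, which favours that mark in the 63.7%. Per Mb covered by the list, the difference of H3K18la at Tgfb1 was -41.8 bp from H3K27ac and -87.7 bp from H3K4me3, and the groups overlapped in both (exact permutation, adjusted p = 0.543 and 0.129, n = 4). On that scale the Igf1 difference from H3K27me3, -57.2 bp, also overlapped (exact permutation, adjusted p = 0.257, n = 4), while the other 3 of the 6 stayed apart (exact permutation, adjusted p = 0.0514). H3K18la at Igf1, which overlapped with H3K4me3 and H3K27ac in kb, was above them per Mb, by 60.6 and 95.6 bp. These groups did not overlap, at the same adjusted p of 0.0514 (exact permutation, n = 4).

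At Vegfa H3K18la was at 0 kb in every library. H3K27me3 with 25.9 ± 6.39 kb (SD, n = 4) and H3K4me3 with 1.87 ± 0.613 kb were both longer without overlap, each at the smallest exact permutation p of 0.0286 (adjusted p = 0.0429, n = 4). That p follows wherever H3K18la has no peak in any list and the other mark has one in all 4. Within 15 kb of H3K4me3 regions, H3K27me3 was longer than H3K18la without overlap in 16.1% and H3K4me3 in 63.7%. The H3K27ac length of 0.522 ± 0.651 kb overlapped with H3K18la, since both 4 dpi libraries were also at 0 (exact permutation p = 0.429, adjusted p = 0.551, n = 4). These adjusted values rest on 6 contrasts that reach the smallest p of 4 against 4 libraries, and with 5 such contrasts the adjusted p is 0.0514. Accordingly, all 6 calls held without H3K18la 2 dpi replicate 1 and none without H3K18la 2 dpi replicate 2 or either H3K18la 4 dpi library, where the adjusted p lay between 0.0643 and 0.0857 (exact permutation), and all 6 kept their direction. Leaving out any library of H3K27me3 ended the calls of Igf1, Tgfb1 and Vegfa against that mark (exact permutation, adjusted p = 0.0514 to 0.0857). For H3K4me3 only the omission of 4 dpi replicate 2 left both calls against that mark, and the Tgfb1 call against H3K27ac held without each of the 4 H3K27ac libraries in turn. The study's text says that the marks were profiled in the same samples, but the labels do not say which libraries share one, and the spread may in part be technical. With libraries of the same time point and replicate number taken as pairs, none of the 6 differences passed (exact permutation of signs, adjusted p = 0.188), since 4 pairs cannot go below 0.125.

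**Figure D2:**
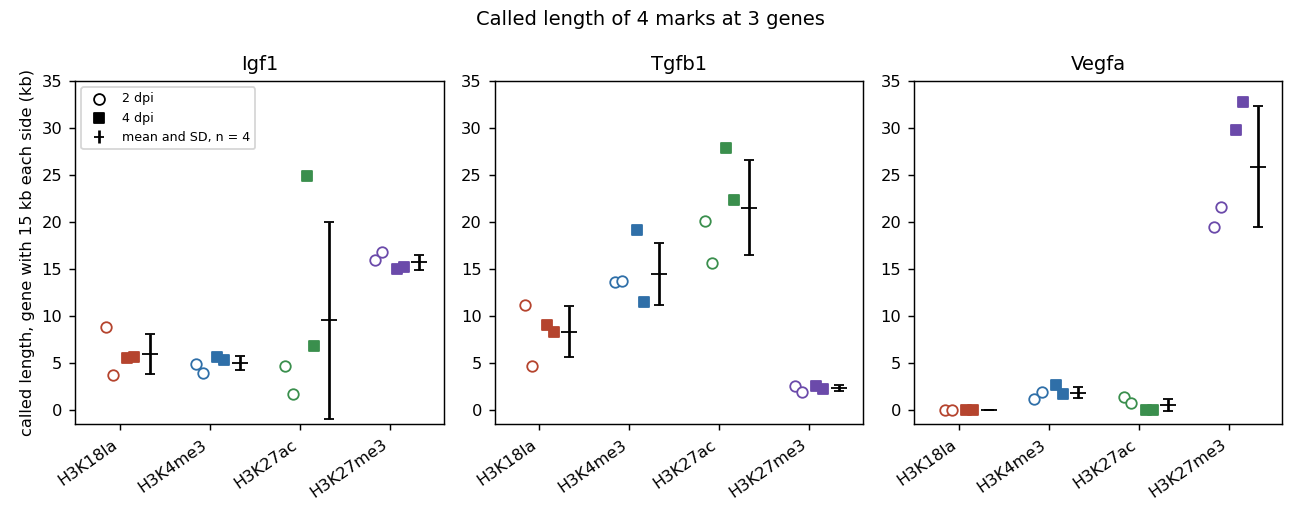
Called length in kb of 4 marks at Igf1, Tgfb1 and Vegfa with 15 kb on each side; each point is a library (open circles 2 dpi, filled squares 4 dpi), and the black bar gives mean and SD of the 4 libraries. H3K27me3 is longest at Igf1 in mean and at Vegfa and shortest at Tgfb1, and one H3K27ac library at Igf1 is at 24.9 kb while the other 3 lie between 1.75 and 6.81 kb.

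The strongest H3K18la peak of a gene ranked at percentile 94.5 ± 2.54 at Igf1 and 87.4 ± 2.96 at Tgfb1 (SD, n = 4). Igf1 values were 96.7 and 93.8 at 2 dpi and 96.2 and 91.1 at 4 dpi, and those of Tgfb1 90.3, 83.3, 87.9 and 88.3 in the same order, so that every Igf1 value exceeded every Tgfb1 value. This separation rested at 2 dpi on the upstream block, which crossed the flank edge and had its highest signal beyond it. The Igf1 start peaks at 2 dpi ranked at 82.8 and 81.0, below the Tgfb1 values of 90.3 and 83.3. Against the other marks at the same gene no contrast passed the threshold. For Igf1 the strongest H3K4me3 peak stood at 88.4 ± 6.31, that of H3K27me3 at 90.7 ± 3.80 and that of H3K27ac at 60.6 ± 40.2 (exact permutation, adjusted p = 0.214, 0.257 and 0.257, n = 4). The H3K27ac value leaves out the 2 dpi peaks over the upstream block, which ended beyond the flank. For Tgfb1, H3K4me3 stood at 93.9 ± 3.28, H3K27ac at 95.5 ± 1.37 and H3K27me3 at 41.4 ± 4.97 (exact permutation, adjusted p = 0.103, 0.0643 and 0.0643, n = 4). The last 2 did not overlap with H3K18la, which reached the smallest unadjusted p of 0.0286. The Tgfb1 value of H3K18la is that of the peak past the gene end. With flanks, H3K18la differed by -6.49 points from H3K4me3, -8.02 from H3K27ac and 46.0 from H3K27me3. In the gene body alone the differences were -57.5, -59.0 and 36.5 points (exact permutation, adjusted p = 0.0514 for each, n = 4). For Vegfa the strongest H3K27me3 peak stood at 93.3 ± 0.646, H3K4me3 at 38.9 ± 3.02 and H3K27ac at 11.3 ± 15.4, with libraries that had no peak, all 4 of H3K18la and both 4 dpi libraries of H3K27ac, set to 0 (exact permutation, adjusted p = 0.0643, 0.0643 and 0.429, n = 4).

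To ask how the marks changed from 2 to 4 dpi, regions called in all 4 libraries of a mark were ranked by total signal within each library and tested with limma. Of 32 regions at the genes, 18 could be tested, 4 for H3K18la, 6 for H3K4me3, 4 for H3K27ac and 4 for H3K27me3. A shift is the difference in normal score of the rank, 4 minus 2 dpi, and the percentiles here are among tested regions and so differ from those among peaks. H3K4me3 rose at the starts of Igf1 and Tgfb1, and no other of the 18 regions passed the threshold. For H3K4me3, 7.78% of 13298 regions rose. In either direction 2108 were called, of which 1035 rose and 1073 fell.

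The H3K4me3 region over the Igf1 start (chr10:87692283-87698771) stood at percentiles 79.5 and 75.2 at 2 dpi and 91.4 and 91.2 at 4 dpi. Its shift was 0.61 ± 0.11 (SE; limma, adjusted p = 0.00471). The region over the Tgfb1 start (chr7:25385362-25390528) stood at 89.8 and 86.5 at 2 dpi and 94.7 and 95.8 at 4 dpi, with a shift of 0.49 ± 0.11 (SE; limma, adjusted p = 0.0103). At both, the 4 dpi libraries exceeded the 2 dpi libraries, a separation that 3 of the 6 regions showed in either direction, beside 60.3% of all H3K4me3 regions. Neither passed when regions were ranked by maximum signal (limma, adjusted p = 0.534 for Igf1 and 0.157 for Tgfb1), by total signal per called base (0.333 and 0.257) or with regions called in any library (0.065 and 0.0738). The Tgfb1 call was also lost on median-scaled log2 signal (limma, adjusted p = 0.232) and without H3K4me3 4 dpi replicate 2 (limma, adjusted p = 0.0703). At the Vegfa start H3K4me3 stood at 21.9 and 24.5 and then at 19.5 and 30.4, a shift of 0.04 ± 0.23 (SE; limma, adjusted p = 0.922), with the time points overlapping.

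For H3K18la no region at the 3 genes passed limma's threshold, and 0.118% of 9325 regions did across the genome. At an unadjusted p under 0.05, 2 of the 4 regions passed, both at Igf1, against 14.8% of all regions. The one at the Igf1 start (chr10:87691922-87697718) stood at percentiles 60.2 and 68.1 at 2 dpi and 94.4 and 82.2 at 4 dpi, a shift of 0.89 ± 0.24 (SE; limma, adjusted p = 0.143). The block upstream of Igf1 stood at 89.4 and 88.4 at 2 dpi and 72.9 and 81.1 at 4 dpi, a shift of -0.47 ± 0.19 (SE; limma, adjusted p = 0.286). The 2 regions of the same gene therefore differed in sign, each with no overlap between time points, and whether their shifts differ from each other was not tested. Without H3K18la 4 dpi replicate 2 the shift of the start region was 1.17 and passed (limma, adjusted p = 0.0365), whereas without 4 dpi replicate 1 it was 0.53 and did not (limma, adjusted p = 0.449). Ranked by maximum signal it was 0.57 (limma, adjusted p = 0.706). Non-overlapping time points were seen in 3 of the 4 regions and in 46.8% of all H3K18la regions.

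At Tgfb1 the H3K18la region past the gene end stood at 70.5 and 71.4 at 2 dpi and 78.4 and 76.9 at 4 dpi (shift 0.21 ± 0.22, SE; limma, adjusted p = 0.688). The weak region inside the gene stood at 11.6 and 7.89 and then 11.5 and 20.4 (shift 0.29 ± 0.54, SE; limma, adjusted p = 0.837). A further small H3K18la region, -13.1 to -12.0 kb from the Igf1 start (chr10:87680991-87682083), was called over 1.09 and 0.519 kb in the 2 dpi libraries and in no 4 dpi library, as were 4.37% of all H3K18la regions. Another 4 of the 12 H3K18la regions at the genes were called in a single library, as were 38.3% of all H3K18la regions.

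For H3K27ac no region at the genes passed limma's threshold, with 1 of 4 at an unadjusted p under 0.05, against 0.185% and 14.0% of 13494 regions. That one joined the Igf1 start with the upstream block (chr10:87674157-87699017) through the 24.9 kb peak of 4 dpi replicate 1. It stood at percentiles 83.5 and 79.3 at 2 dpi and 95.7 and 92.4 at 4 dpi (shift 0.68 ± 0.20, SE; limma, adjusted p = 0.157). Without that library the overlapping region shifted by 1.34 (limma, adjusted p = 0.155). The H3K27ac region over the Tgfb1 start stood at 94.1 and 96.3 at 2 dpi and 87.7 and 94.7 at 4 dpi, and the time points overlapped (shift -0.29 ± 0.19, SE; limma, adjusted p = 0.504). Time points did not overlap in 2 of the 4 regions, beside 47.2% of all H3K27ac regions.

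H3K27me3 at the Igf1 start (chr10:87690769-87709266) stood at 90.8 and 88.3 at 2 dpi and at 80.9 and 76.1 at 4 dpi, a shift of -0.47 ± 0.10 that missed the threshold (SE; limma, adjusted p = 0.0846). No other H3K27me3 region at the genes passed limma's threshold, and 0.945% of 7515 regions did. The Igf1 region was also the single one of 4 with an unadjusted p under 0.05, against 15.3% of all. It passed without H3K27me3 2 dpi replicate 2 (limma, adjusted p = 0.0194), with stricter lists (0.0437) and with lists of equal length (0.0343). It did not pass without any of the other 3 libraries (limma, adjusted p = 0.137 to 0.584), nor by maximum signal (0.653), signal per called base (0.742), median-scaled log2 signal (0.231) or with regions called in any library (0.295). The Vegfa block over the start stood at 85.8 and 87.7 and then 85.9 and 86.8 (shift -0.02 ± 0.09, SE; limma, adjusted p = 0.933). The block in the Vegfa gene stood at 70.4 and 70.5 and then 72.2 and 78.9 (shift 0.16 ± 0.12, SE; limma, adjusted p = 0.568). Non-overlap was found in 3 of the 4 regions and in 48.8% of all.

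**Figure D3:**
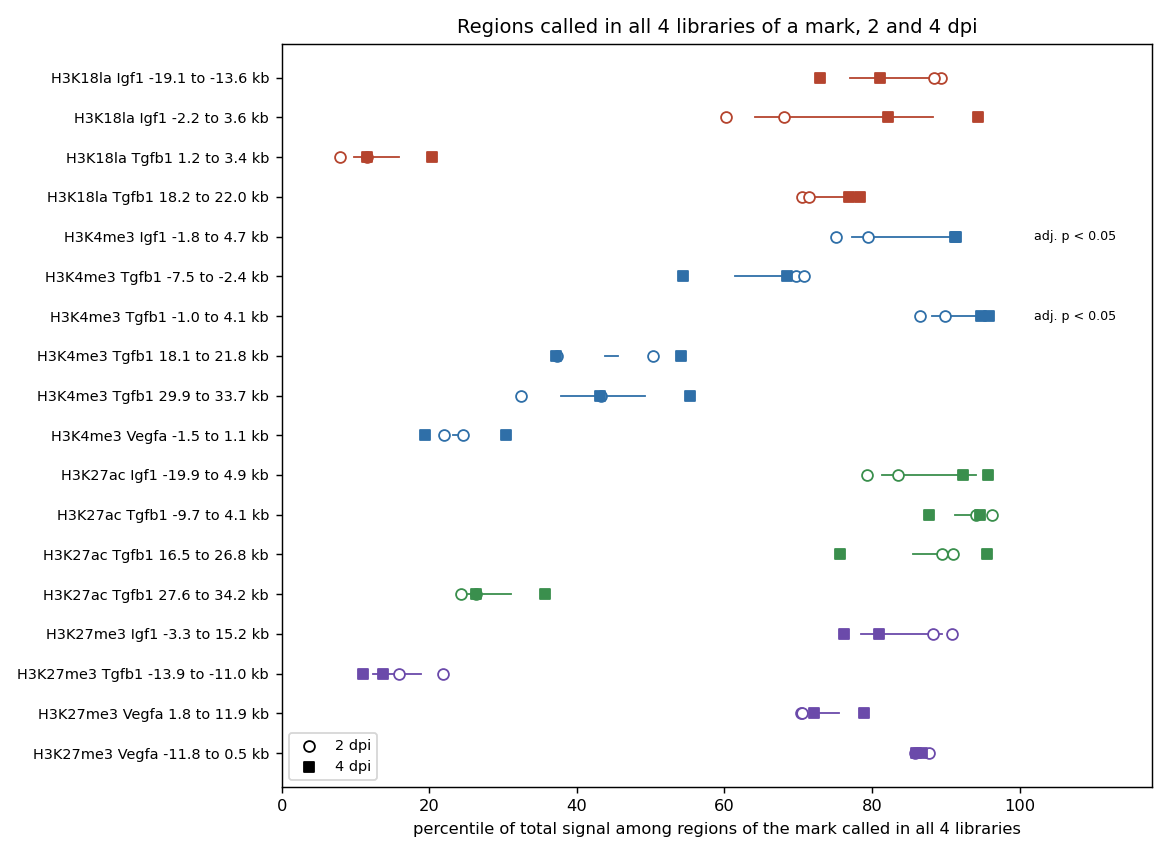
The 18 regions called in all 4 libraries of their mark, named by mark, gene and distance from the start; the axis is the percentile of total signal among all such regions of the mark, each point is a library (open circles 2 dpi, filled squares 4 dpi), and the line joins the 2 means. The H3K4me3 regions over the Igf1 and Tgfb1 starts, from 77.3 to 91.3 and from 88.2 to 95.3 in mean, are the 2 marked as passing limma's threshold.

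Called length by time point gave a further description, since 2 against 2 libraries cannot go below an exact permutation p of 0.333 (n = 2). For H3K18la the time points overlapped at Igf1 and at Tgfb1, and non-overlap within 15 kb was found at 17.5% of H3K4me3 regions. H3K4me3 length at Igf1 was greater in both 4 dpi libraries than in both of 2 dpi, while those of Tgfb1 and Vegfa overlapped, with 40.2% of regions not overlapping in general. H3K27ac length was greater at 4 dpi at Igf1, by 12.6 kb and by 3.58 kb without 4 dpi replicate 1. It was also greater at Tgfb1, where it went from 20.2 and 15.7 kb to 27.9 and 22.4 kb, and lower at Vegfa. For this mark 38.8% of regions did not overlap. Per Mb of list, Tgfb1 had 309 and 415 bp at 2 dpi and 136 and 346 bp at 4 dpi, so the greater length was not kept. Igf1 had 72.2 and 46.3 bp and then 122 and 105 bp. Near the Tgfb1 start the difference was 3.28 kb, at the 52.2nd percentile of the 13298 regions. The Vegfa difference of H3K27ac, -1.04 kb near its start, was at the 0.835th percentile of the differences at 13298 regions, whose median was 3.06 kb. That median includes H3K27ac 4 dpi replicate 1, whose list covered 205 Mb against 37.8 to 65.3 Mb in the other H3K27ac lists. Median and percentile were not computed without it. H3K27me3 length was lower at 4 dpi at Igf1 and higher at Vegfa, with 14.2% of regions not overlapping. That share is over all regions, and the 68.8% that had no H3K27me3 always count as overlapping. The Igf1 difference of -1.28 kb stood at the 1.85th percentile, where the median was 0. Per Mb of list, Igf1 had 306 and 275 bp at 2 dpi and 188 and 188 bp at 4 dpi. Vegfa had 373.6 and 353.4 bp and then 374.1 and 404.9 bp.

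Checks on the labels were limited by the reference. H3K4me3 peaks lay within 1 kb of the GRCm39 starts of all 3 genes in 4 of 4 libraries, and at the same genes' GRCm38 positions in 0 of 4. The markers of macrophages and other cell types, and other members of the 3 signalling pathways, were not analysed here, since no GRCm39 gene positions were at hand beyond those of the 3 genes.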

How the data were processed

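The authors deposited 1 SEACR peak list per library. The tools named in the submitters' processing notes are Trim Galore 0.6.6, Bowtie2 2.4.4, SAMtools 1.13, bedtools 2.30 and SEACR 1.3, the peak caller. The deposited signal is the total and the maximum of fragment coverage over a peak, not normalized between libraries. Build and file labels name GRCm39, the study's methods mm10 for alignment. A caller that keeps a top share of each library ties list length to depth and background, and depth is unknown. Here peaks on 21 chromosomes were ranked within lists and merged per mark where they overlapped by at least 1 bp. Rank shifts were tested with limma 3.58.1 in R 4.3.3 (trended, robust variance) on normal scores, adjusted by the Benjamini-Hochberg method over all regions of a mark, and marks with exact permutation tests in Python 3.11.15 adjusted over 9 contrasts. The limma step was tested on simulated data. Regions named are those at the gene start, the strongest and any that passed, and others described were chosen after their values were seen. Alternatives covered flank, ranking, list length, merging, the replicate block and leaving out libraries. The members, lists and motifs were chosen with earlier results of these data known. The planned pathway list, cell type markers and most similar genes need GRCm39 annotation and were not run. File names of H3K27me3 at 4 dpi number the replicates the other way round, and the labels were followed.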

Additional observations from a re-analysis of the deposited data

Results flagged for a closer look

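The difference between 4 and 2 dpi took opposite directions in different marks at Igf1 and at Vegfa, with no overlap of the 2 libraries of each time point. At Igf1 called length differed by 1.02 kb for H3K4me3, 12.6 kb for H3K27ac and -1.28 kb for H3K27me3, and the percentile of the strongest peak by 10.5, 68.3 and -6.49 points in the same order. Both H3K27ac differences leave out the 2 dpi peaks over the upstream block, which ended beyond the flank, whereas 4 dpi peaks there crossed its edge. In the joined H3K27ac region, which counts the block at both times, the mean percentile among tested regions went from 81.4 to 94.0. The 12.6 kb was 3.58 kb without H3K27ac 4 dpi replicate 1 and 21.6 kb without H3K27ac 4 dpi replicate 2, and without the replicate 2 of 2 dpi the difference was 0.547 kb for H3K4me3 and -0.846 kb for H3K27me3, in values computed after seeing the data. At Vegfa the called length of H3K27ac differed by -1.04 kb and that of H3K27me3 by 10.8 kb, while the strongest peak differed by 4.63 points for H3K4me3 and by -22.7 points for H3K27ac. The last is the 2 dpi mean against 0, which was assigned because neither 4 dpi library had a peak, and is not a change in a measured rank. Whether the differences of these marks differ from each other was not tested, and 2 libraries per time point cannot go below an exact permutation p of 0.333. Dixon's criterion was met in none of the 22 groups of 4 libraries with any spread in called length or strongest percentile. The highest ratio of gap to range, 0.781, was below the critical value and belonged to the called length of Igf1 in H3K27ac 4 dpi replicate 1, and 4 values give the criterion little power.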

How the results depend on the processing

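The calls at the genes depended on how signal was ranked. H3K4me3 had 2 called regions, and 0 when ranked by maximum signal, 0 by total signal per called base, 0 with regions called in any library and 1 on median-scaled log2 signal. With stricter lists, and with lists of a mark of equal length, H3K27me3 had 1 call in place of 0. With a replicate block, 1 region each was called for H3K18la, H3K27ac and H3K27me3 in place of 0, all at Igf1 (limma, adjusted p = 0.0281, 0.0305 and 0.0260). Whether replicate numbers pair the samples is not given by the labels. Deviations of same-numbered libraries at 2 and 4 dpi correlated at -0.0648 to 0.0862 across regions, which cannot settle it. The block raised calls over all regions from 11 to 218 for H3K18la and from 2108 to 2401 for H3K4me3. For H3K27ac they rose from 25 to 581 and for H3K27me3 from 71 to 208. In paired sign flips (replicate block) the 6 called length differences kept their values of -9.79 kb (Igf1 against H3K27me3), -6.15, -13.2 and 5.999 kb (Tgfb1 against H3K4me3, H3K27ac and H3K27me3), -1.87 and -25.9 kb (Vegfa against H3K4me3 and H3K27me3), with the smallest possible p of 0.125 and an exact permutation adjusted p of 0.188. In the same order these were -10.2, -1.87, -2.57, 1.92, -0.661 and -9.72 kb in the gene body alone, -11.5, -3.07, -7.17, 5.91, -1.87 and -14.7 kb with 5 kb flanks, and -57.2, -87.7, -41.8, 224, -44.1 and -377 bp per Mb of list, none passing. Uncalled differences changed sign for Igf1 against H3K4me3 (-1.23 kb in the gene body, -0.740 kb with 5 kb flanks, -0.383 kb with 16 lists of equal length), for Igf1 against H3K27ac (95.6 bp per Mb) and for the strongest Igf1 peak in the gene body (-0.602 points against H3K4me3, -2.93 against H3K27me3).

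Uncalled shifts that changed sign were, by maximum signal, H3K18la Tgfb1 at 1.2 kb (-0.22), H3K4me3 Tgfb1 at -7.5 kb (0.13), H3K27ac Igf1 (-0.16) and Tgfb1 at 27.6 kb (-0.61), and H3K27me3 Vegfa at -11.8 kb (0.41). Per called base they were H3K4me3 Tgfb1 at -7.5 kb (0.38) and 29.9 kb (-0.040) and Vegfa (-0.18), H3K27ac Tgfb1 at -9.7 kb (0.15), 16.5 kb (0.76) and 27.6 kb (-0.56), and H3K27me3 Tgfb1 (0.021) and Vegfa at -11.8 kb (0.45). On median-scaled log2 signal they were H3K18la Tgfb1 at 1.2 kb (-0.031) and 18.2 kb (-0.077), H3K27ac Tgfb1 at 16.5 kb (0.018), and H3K27me3 Tgfb1 (0.11) and Vegfa at -11.8 kb (0.18). H3K27ac Tgfb1 at 27.6 kb was -0.028 with peaks within 1 kb merged and -0.041 with regions called in any library. The cause was not tested.

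With single libraries left out, called regions ranged from 0 to 1 for H3K18la, 1 to 2 for H3K4me3, 0 to 0 for H3K27ac and 0 to 1 for H3K27me3. Length differences from H3K18la ranged at Igf1 from -0.0095 to 1.70 kb for H3K4me3, -6.19 to 1.51 kb for H3K27ac and -10.8 to -9.05 kb for H3K27me3. At Tgfb1 they ranged from -7.15 to -4.59, -15.1 to -11.1 and 5.04 to 7.20 kb, and at Vegfa from -2.10 to -1.60, -0.697 to -0.248 and -28.1 to -23.6 kb. Shifts that changed sign ranged from -0.10 to 0.22 (H3K4me3 Vegfa), -0.16 to 0.26 (H3K4me3 Tgfb1 at 18.1 kb), -0.51 to 0.020 (H3K27ac Tgfb1 at -9.7 kb), -0.60 to 0.41 (H3K27ac Tgfb1 at 16.5 kb) and -0.065 to 0.026 (H3K27me3 Vegfa at -11.8 kb). The lists give no depth, so a mark below the caller's threshold cannot be told from an absent one.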
